A study of Mus musculus with 18 samples.

Results

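The genes described here are the 10 mouse genes of MHC class II antigen presentation chosen by symbol: *H2-Aa*, *H2-Ab1*, *H2-Eb1*, *H2-Eb2*, *H2-DMa*, *H2-DMb1*, *H2-DMb2*, *H2-Oa*, *Cd74* and *Ciita*. All 10 were among the 20298 genes of the deposited RNA-seq table. The table gives RPKM (read counts scaled to gene length and to the mapped reads of a library) in 18 libraries of C57BL/6 monocytes, in 6 groups of 3. WT and DKI monocytes (Ly6C+ CCR2+) were either untreated (day 0) or cultured in GM-CSF at 20 ng/mL, and are called monocyte-derived cells (MDCs) after 3 or 6 days of culture. The age of the mice from which these monocytes came is not given in the sources used here. DKI mice carry mutated N-domains in both *Stat5a* and *Stat5b*, so that STAT5 can form a dimer and not a tetramer; RPKM values cannot show these point mutations. The mutation is present in every cell of the mouse, and the cells were enriched by negative selection and not sorted. Each library carries a number within its group, and the labels do not say whether a number stands for the same experiment on every day. The comparisons ask whether these genes depend on STAT5 tetramers before or after GM-CSF, and how the values of the pathway's genes compare with each other.

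MHC class II molecules display peptides from endocytosed proteins to CD4+ T cells, and they are abundant on dendritic cells, B cells and activated macrophages. *H2-Aa* and *H2-Ab1* encode the α and β chains of I-A, and *H2-Eb1* and *H2-Eb2* encode β chains of the I-E type, whose α chain gene *H2-Ea* is not functional in C57BL/6 mice. *Cd74* encodes the invariant chain, which holds the peptide groove closed on the way to the endosome. There, cathepsins trim the invariant chain to a short fragment, H2-DM (from *H2-DMa* with *H2-DMb1* or *H2-DMb2*) exchanges that fragment for peptide, and H2-DO (from *H2-Oa* and *H2-Ob*) restrains H2-DM. *Ciita* encodes the class II transactivator, a co-activator that binds no DNA itself and is recruited to the X and Y boxes of class II promoters by RFX, CREB and NF-Y proteins.

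Depth was estimated from the smallest values of 1177 short receptor genes as 29.5 to 43.2 M reads per library, so that 3 reads on a transcript of 1 kb would be 0.102 RPKM in the shallowest library. The labels give liver as the tissue, whereas the series description and the study's methods give bone marrow. The summed level of 5 hepatocyte markers was 0 to 0.047 RPKM in all 18 libraries, while that of 6 monocyte markers was 3084 to 4426 RPKM on day 0. After culture some marker sums stood apart between the genotypes and others overlapped, and none was tested. On day 3 the monocyte markers summed to 490 to 721 RPKM in WT MDCs and to 2021, 749.8 and 1296 RPKM in DKI libraries 1 to 3, and on day 6 to 305 to 714 and 553 to 1180 RPKM. The sum of 6 conventional dendritic cell markers was 236 to 656 RPKM in WT and 12.9 to 21.4 in DKI MDCs on day 3, and 379 to 908 and 39.1 to 79.7 on day 6. On day 0 it was 8.51 to 19.1 RPKM in WT and 11.2 to 19.6 in DKI monocytes. On day 3 the sum of 6 macrophage markers was 389 to 933 in WT MDCs and 1785 to 4203 in DKI MDCs, and on day 6 it was 505 to 1658 and 1825 to 4733. The sum of 8 B cell markers on day 3 was 1.65 to 1.81 RPKM in WT MDCs and 6.55 to 25.3 in DKI MDCs, and on day 6 it was 1.48 to 3.92 and 10.49 to 33.1, but at most 2 of them were above 1 RPKM in any library, and the defining marker *Ms4a1* was at or below 0.241 RPKM throughout. Neutrophil markers summed to 902 to 1219 RPKM in WT and 859 to 1225 RPKM in DKI monocytes on day 0, above every cultured library. After culture they varied within groups, with sums of 515 RPKM in WT library 2 and 401 and 493 in DKI libraries 1 and 2 on day 3. On day 6 they summed to 165 RPKM in WT library 1 and 507 in DKI library 1, the other libraries of that day being at or below 10.9. The sum of 6 plasmacytoid dendritic cell markers was 1249 and 969 RPKM in DKI library 1 of days 3 and 6 and 84.1 to 197 in WT MDCs, most of it *Bst2*, while *Siglech* was at or below 0.532 RPKM throughout. In these bulk samples, fewer cells that bear class II and less class II RNA per cell cannot be told apart, and the part of these markers in the results below was not tested. Both DKI libraries numbered 1 after culture also stood apart, with *H2-K1*, a class I heavy chain, at 2253 RPKM on day 3 and 2385 on day 6, against 409 to 827 in the other DKI MDCs.

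Of the 10 genes, 8 lie within about 250 kb of the class II region on chromosome 17. In the RefSeq annotation of GRCm38.p6 they run from *H2-Oa* (chr17:34092379-34095234) through *H2-DMa*, *H2-DMb2* and *H2-DMb1* to *H2-Ab1* (chr17:34263227-34269418), *H2-Aa* (chr17:34282744-34287823), *H2-Eb1* (chr17:34305867-34316674) and *H2-Eb2* (chr17:34325503-34341410). *Ciita* (chr16:10480014-10531064) and *Cd74* lie on other chromosomes. The annotated span of *H2-DMa* overlaps that of *Brd2*, and how reads in the overlap were assigned is not given in the sources used here. Near-identical sequence was limited to 1 pair of the 10 genes: 22.7% of the 50-base windows in *H2-DMb1* transcripts also occur in *H2-DMb2*, and 24.8% of those in *H2-DMb2* occur in another gene, mostly *H2-DMb1*. How reads that match both were counted is not given either, so the split between these 2 β chains is uncertain.

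Promoter sequences are shown because the X and Y boxes through which *Ciita* acts lie in the promoters of its target genes. RefSeq windows of 300 bases, from 250 before to 50 after the start, were found for 7 of the 10 genes. The Y box core TGATTGG, searched on both strands, was in 6 of the 7, the exception being *H2-DMa*, and in 7.82% of all 32851 mouse promoter windows. The X box letters AGCAAC were in *H2-Eb1*, *H2-Eb2* and *H2-Oa* and in 14.8% of all windows, and the full cyclic AMP element TGACGTCA was in *H2-Aa* and in 1.79% of all windows. In *H2-Eb1* and *H2-Eb2*, 25 bases separate AGCAAC from TGATTGG, and in *H2-Oa* 26 bases do. TTCNNNGAA, the form of site to which STAT proteins bind, was in the window of *H2-DMb2* and in 8.3% of all windows. The motifs were chosen after the sequences had been seen, and a match is a run of letters, not a measured site. In the sequences below, read 5′ to 3′ on the gene's own strand, capitals mark these motifs. The first 2 are the promoters of I-A α (chr17:34287837-34287933, minus strand) and I-E β (chr17:34305746-34305842, plus strand), and the others are the surroundings of the Y box in *H2-Eb2* (chr17:34325562-34325590), *H2-DMb1* (chr17:34153117-34153145), *H2-DMb2* (chr17:34145146-34145174) and *H2-Oa* (chr17:34092323-34092351), all on the plus strand. These last 4 stretches overlap an annotated exon or the gene's own span, although they lie before the start that RefSeq's window uses.
H2-Aa: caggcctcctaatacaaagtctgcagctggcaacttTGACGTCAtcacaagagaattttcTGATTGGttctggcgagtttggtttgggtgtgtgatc
H2-Eb1: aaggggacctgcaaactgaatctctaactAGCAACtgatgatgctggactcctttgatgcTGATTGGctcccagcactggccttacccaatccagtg
H2-Eb2: ctcttggctgcTGATTGGttcttcagcac
H2-DMb1: gattcactcagTGATTGGtctgacctgcc
H2-DMb2: aagtcacttagTGATTGGactgacttaac
H2-Oa: gagaactgctcTGATTGGctgcttaccgc

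Before GM-CSF, the classical chains and *Ciita* were low in both genotypes and the genotypes could not be separated. *Ciita* was listed at 0.104, 0.141 and 0.523 RPKM in WT and 0.0994, 0.204 and 0.636 RPKM in DKI monocytes. *H2-Aa* was at 17.5, 26.2 and 25.7 RPKM in WT and 12.1, 32.4 and 30 RPKM in DKI monocytes. *Cd74* and *H2-DMa* were already higher than the classical chains at this time, at 55.0, 92.5 and 80.9 RPKM and at 65.3, 108 and 146 RPKM in WT monocytes, whereas *H2-DMb2* was below *H2-Aa*, at 1.51, 2.83 and 4.3 RPKM. *H2-Eb2* was listed at 0.01 to 0.0823 RPKM, which is near the level of a few reads. In the plot of levels by library the WT and DKI points of day 0 lie among each other for all 10 genes. Of the 10 genes, 7 had a mean above 2 RPKM in 1 of the groups and were fitted, and their log2 fold changes on the log2(RPKM + 1) scale, which is used throughout and understates changes of low genes, lay between −0.14 and 0.14. A gene was called when limma's adjusted p was under 0.05 and its level differed by more than 1.5-fold. None of the 7 was called, nor were any others (0% of the 9179 genes fitted), and none had an unadjusted p under 0.05 against 44 of all genes.

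**Figure D1:**
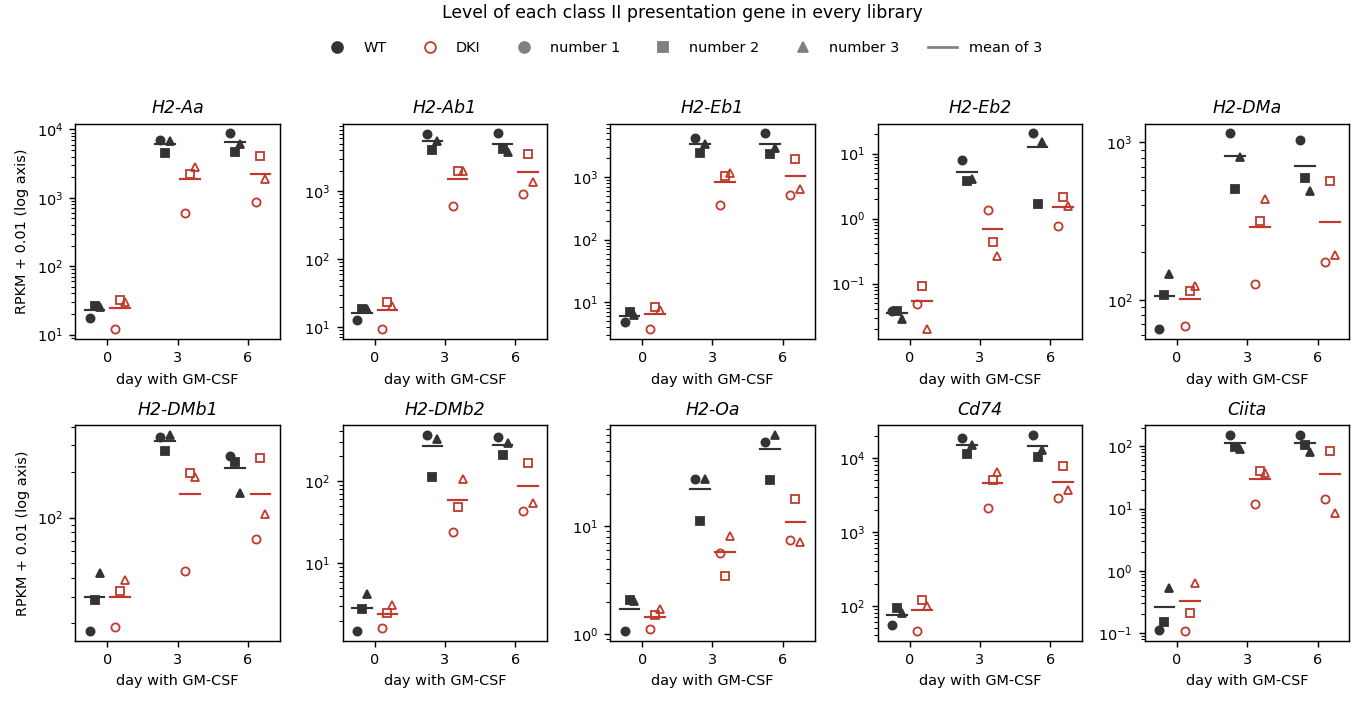
Level of each of the 10 genes in every library, as RPKM + 0.01 on a log axis, by day with GM-CSF. Filled black symbols are WT, open red symbols are DKI, the symbol's shape gives the library's number and the line is the mean of 3; all 10 genes sit higher on days 3 and 6 than on day 0 in WT, and the 3 DKI points of day 3 sit below the 3 WT points for every gene.

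Every one of the 10 genes rose in WT cells between day 0 and day 3 with GM-CSF, by amounts that differed between genes. Day 0 cells were not cultured, so GM-CSF and time in culture cannot be told apart. *H2-Eb1* went from 6.05 ± 1.17 to 3326 ± 859 RPKM (SD, n = 3), a ratio of means of 550, *H2-Ab1* from 16.3 ± 3.36 to 5493 ± 1439 RPKM, a ratio of 337, and *H2-Aa* from 23.1 ± 4.88 to 6208 ± 1408 RPKM, a ratio of 268. *Cd74* reached 18810, 11360 and 15147 RPKM, 198 times its day 0 mean. With that it was the gene with the highest mean of all 20298 in WT MDCs on day 3, and *H2-Aa*, *H2-Ab1* and *H2-Eb1* ranked 3, 4 and 8. The 10 genes together made up 0.0664% of the summed RPKM of WT monocytes and 7.32% of that of WT MDCs on day 3.

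*Ciita*, the transactivator, rose from at most 0.523 RPKM to 149.9, 99.0 and 90.2 RPKM, a ratio of means of 441 (log2 fold change 6.48, SE 0.24). H2-DM α chain RNA, which started high, had the smallest ratio of means, from 106.5 ± 40.6 to 817 ± 318 RPKM (7.67). Its partner *H2-DMb1* rose by a ratio of 10.8, whereas *H2-DMb2* rose from 2.88 ± 1.39 to 263 ± 133 RPKM, a ratio of 91.3. *H2-Oa* went from 1.71 ± 0.56 to 22.0 ± 9.33 RPKM. *H2-Eb2* reached 7.86, 3.82 and 4.05 RPKM, under 1 part in 100 of *H2-Eb1* in each library. Adjusted p-values in limma were between 4.44e-06 and 0.00137, all 10 genes were called higher, and the background was 20.3% of the 9938 genes fitted. *Ciita*, *H2-Eb2* and *H2-Oa* passed the limit of 2 RPKM only through day 3 (day 0 means 0.256, 0.0248 and 1.71 RPKM), so they could only be called higher. The median log2 fold change was 6.23 over the 10 genes and −0.05 over all genes fitted.

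In DKI cells 9 of the 10 genes were fitted (the means of *H2-Eb2* stayed under 2 RPKM), and 8 of them were called higher on day 3, where 13.1% of 9922 genes were called higher. *Ciita* and *H2-Oa* again passed the limit only through day 3 (day 0 means 0.313 and 1.44 RPKM), so they could only be called higher. *H2-Eb1* rose from 6.55 ± 2.48 to 839.7 ± 427 RPKM, a ratio of 128, *Cd74* from 88.8 ± 38.8 to 4572 ± 2224 RPKM, a ratio of 51.5, and *Ciita* from 0.313 ± 0.285 to 29.7 ± 15.6 RPKM, a ratio of 94.9. *H2-DMa* went from 101 ± 29 to 292 ± 155 RPKM and missed the threshold (log2 fold change 1.39, SE 0.48, adjusted p = 0.0632 in limma). Without DKI library 1 of day 3 it was called as well, and without any other single library 7 genes were called, the call of *H2-DMb1* being lost. All 9 were called with a block on the library number, with median centring and with all 18 libraries in 1 fit, beside 1220, 1743 and 1551 of all 9922 genes called higher. With no filter on low values 6 of 10 were called, beside 858 of all 20298. The 10 genes made up 2.2% of the summed RPKM on day 3. Between days 3 and 6 none was called in either genotype, with 0% of all genes called in WT and 0% in DKI cells, against 722 and 93 genes with an unadjusted p under 0.05. The values closest to a change over that interval were those of *H2-Oa* in WT MDCs, from 27.1, 11.2 and 27.6 to 60.5, 26.7 and 69.6 RPKM (log2 fold change 1.21, SE 0.47), and of *H2-DMb1*, from 343, 276 and 351 to 254, 233 and 147 RPKM (log2 fold change −0.64, SE 0.24), each with an adjusted p of 0.649 in limma.

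Against WT on day 3, DKI MDCs held less RNA of all 10 genes, and for each gene the highest DKI library lay below the lowest WT library. Such a separation was seen for 22.9% of the 9740 genes fitted. The log2 fold changes ran from −2.22 (*H2-DMb2*) to −1.43 (*H2-DMb1*), with a median of −1.93 against −0.11 over all genes, and each of the 10 had an unadjusted p under 0.05 in limma, as had 2583 of all 9740 genes. Under the adjustment over all genes 1 of the 10 was called lower, *H2-Eb2*, where 4.21% of all genes were called lower and 3.21% higher. *H2-Eb2* passed the limit of 2 RPKM only through its WT mean (5.24 RPKM, against 0.682 in DKI), so a call could only be lower. On day 6 the same held (12.4 against 1.48 RPKM). The other 9 had adjusted p-values between 0.0548 (*Ciita*) and 0.176 (*H2-DMb1*).

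*Ciita* on day 3 was at 11.8, 40.4 and 37.0 RPKM in DKI MDCs, a mean 3.8-fold under that of WT (log2 fold change −2.03, SE 0.48). *H2-Aa* was at 7137, 4588 and 6899.9 RPKM in WT and 602, 2206 and 2875 RPKM in DKI MDCs. DKI library 1 was the lowest of the 6 for both genes, and the other DKI libraries lay at about the same distance below WT for both. *Cd74* was at 2139, 5073 and 6502 RPKM in DKI MDCs, which still placed it at rank 3 among all genes by mean level. *H2-Ab1* was at 6963, 4088 and 5428 RPKM in WT and 613, 1952 and 1976 RPKM in DKI MDCs, and *H2-Eb1* at 4169, 2452 and 3359 and at 352, 1021 and 1146 RPKM. For both β chains the groups were apart, with DKI library 1 lowest.

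Library 1 was not the lowest DKI library for *H2-Eb2* and *H2-Oa*. It had the most *H2-Eb2*, 1.37 RPKM, against 0.421 and 0.256 RPKM in the other DKI libraries and 7.86, 3.82 and 4.05 RPKM in WT MDCs (log2 fold change −1.89, SE 0.35, adjusted p = 0.0305 in limma). *H2-Oa* was at 27.1, 11.2 and 27.6 RPKM in WT and 5.6, 3.41 and 8.14 RPKM in DKI MDCs (log2 fold change −1.73, SE 0.41, adjusted p = 0.0567). Among the H2-DM chains, *H2-DMa* was at 1138, 503 and 809 RPKM in WT and 127, 315 and 434 RPKM in DKI MDCs. Blocking on the library number, which moved the count of called members from 1 to 2, added *H2-Oa* (adjusted p = 0.0216), where 2.96% of all genes were called lower. With the spread estimated from all 18 libraries, 8 of the 10 were called lower, all but *H2-DMa* (adjusted p = 0.0566) and *H2-DMb1* (adjusted p = 0.089), where 8.16% of all genes were called lower. Without DKI library 1, 3 were called (*H2-Eb2*, *Ciita* and *H2-Eb1*, adjusted p = 0.0216, 0.0274 and 0.0438) at a median log2 fold change of −1.47, beside 389 of all 9711 genes fitted. Leaving out WT library 2, whose neutrophil markers were high, also left 1 gene called, which was then *H2-Oa* (adjusted p = 0.0442), beside 129 of all 9711 genes, and leaving out any one of WT libraries 1 and 3 or DKI libraries 2 and 3 left 0.

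**Figure D2:**
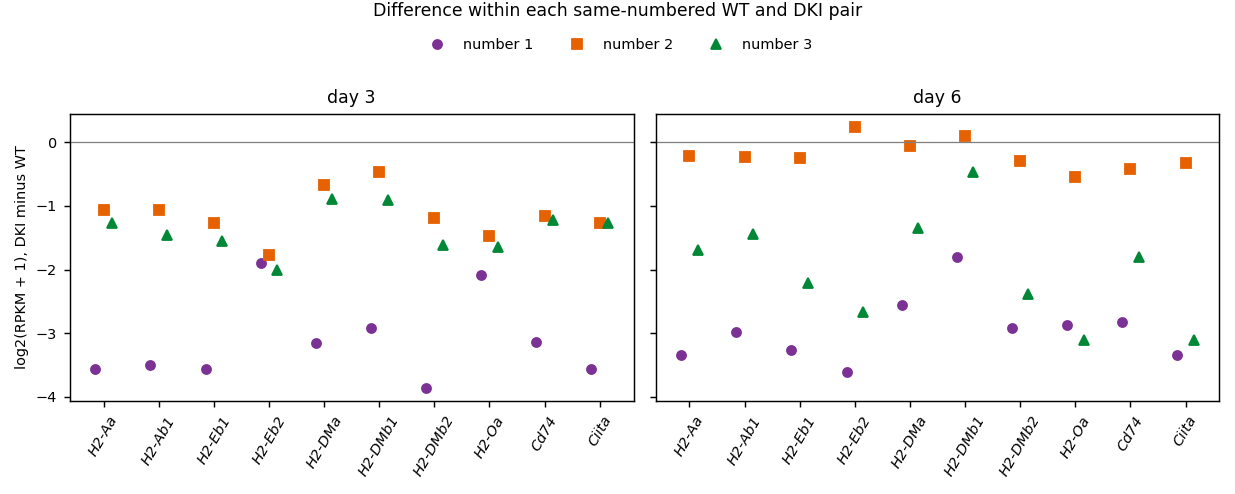
Difference DKI minus WT in log2(RPKM + 1) within each pair of libraries that carry the same number, for the 10 genes on day 3 (left) and day 6 (right). All 30 points of day 3 lie below 0; on day 6 the points of number 1 lie between −3.61 and −1.80 and those of number 2 between −0.55 and 0.24.

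On day 6 all 10 genes were again lower on average in DKI MDCs, but DKI library 2 lay near WT. The log2 fold changes ran from −2.26 (*Ciita*) to −0.72 (*H2-DMb1*), with a median of −1.81 against −0.17 over all genes. *H2-Oa* alone was called, at 60.5, 26.7 and 69.6 RPKM in WT and 7.42, 18 and 7.19 RPKM in DKI MDCs (log2 fold change −2.17, SE 0.47, adjusted p = 0.0442 in limma), where 4.82% of 9842 genes were called lower and 2.72% higher. With each library centred on its median, 285 genes were called lower and 323 higher, and 0 of the 10. With the block 0 were called (*H2-Oa*: adjusted p = 0.0802), against 4.41% of all genes. With the spread of all 18 libraries 6 were called, against 10.7%. The groups did not overlap for 6 of the 10 genes (*H2-Aa*, *H2-Ab1*, *H2-Eb1*, *H2-DMb2*, *H2-Oa* and *Cd74*), a separation seen for 26.6% of all genes.

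The spread within the DKI group of day 6 is seen best in *Ciita*, which was at 151, 105.6 and 81.1 RPKM in WT and 14.1, 84.0 and 8.55 RPKM in DKI MDCs. Library 2 of the DKI group thus had more *Ciita* than library 3 of the WT group. *H2-Aa* was at 8752, 4693 and 6101 RPKM in WT and 867, 4059 and 1881 RPKM in DKI MDCs, and *Cd74* at 20447, 10378 and 12840 RPKM and at 2894, 7752 and 3680 RPKM. For both genes library 2 was the highest DKI and the lowest WT library. Without DKI library 2, 8 of the 10 genes were called lower, beside 655 of all 9842 genes fitted, *H2-DMb1* (adjusted p = 0.0681) and *H2-Eb2* (0.163) being the others, and the median log2 fold change was −2.25. Among the dendritic cell markers of DKI MDCs of day 6, that library had the most *Cd209a* (12.9 against 1.77 and 2.82 RPKM), *Zbtb46* (6.59 against 2.45 and 1.93 RPKM) and *Flt3* (1.14 against 0.591 and 0.585 RPKM) and the least *Ccr7* (16.5 against 33.9 and 70.9 RPKM). *Clec9a* was at 0.273, 3.09 and 3.44 RPKM and *Xcr1* at or below 0.0978 RPKM in DKI libraries 1 to 3, and the summed list was at 39.1, 40.3 and 79.7 RPKM. The sum of 5 T cell markers was also highest in library 2, at 10.06 RPKM against 0.467 and 0.43, 8.79 RPKM of it from *Cd3g*. The part of these markers in the class II levels was not tested. For *H2-Eb2* the overlap came from WT library 2, at 1.67 RPKM beside 20.4 and 15.2 RPKM, and without that library 2 genes, *H2-Eb2* and *H2-Oa*, were called (adjusted p = 0.0169 and 0.0333), beside 355 of all 9856 genes. Leaving out any one of WT libraries 1 and 3 or DKI libraries 1 and 3 left 0 genes called.

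Within pairs that carry the same library number, the median difference was largest in number 1, whose library names carry an earlier year at days 3 and 6. On day 3 the median over the 10 genes was −3.33 in pair 1, −1.18 in pair 2 and −1.36 in pair 3, and all 10 genes were lower in DKI in each pair. On day 6 the medians were −2.95, −0.24 and −2.01, and the genes lower in DKI numbered 10, 8 and 10, the exceptions in pair 2 being *H2-Eb2* and *H2-DMb1*. Fitted on numbers 2 and 3 alone, all 10 were lower on both days, with a median log2 fold change of −1.27 and 2 genes called on day 3 beside 206 of all 9723 (*Ciita*, adjusted p = 0.0286, and *H2-Eb2*, adjusted p = 0.0333), and −1.16 and 0 called on day 6, where 12 of all 9800 were called lower. Pair 1 alone has 1 library per genotype and gives no test.

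Ratios between genes within a library were compared next, and most of them overlapped between the genotypes. The mean ratio of *H2-Ab1* to *H2-Aa* RPKM on day 3 was 0.884 in WT MDCs and 0.864 in DKI MDCs, and on day 6 it was 0.773 and 0.884. For *Cd74* to *H2-Aa* it was 2.44 and 2.7 on day 3, and 3.27 and 3.62 on day 0. For *H2-Aa* to *Ciita*, the day 3 ratio was 56.8 in WT MDCs and 61.1 in DKI MDCs, and that of day 6 was 59.1 and 109.9. The last value rests on DKI library 3, which had the least *Ciita* of day 6 but not the least *H2-Aa*, with a log2 ratio of 7.62 where WT libraries ranged from 5.46 to 6.21.

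Of the 7 ratios on day 6, that of the H2-DM β chains differed most. The mean ratio of *H2-DMb2* to *H2-DMb1* was 0.0944 in WT monocytes, 0.786 in WT MDCs on day 3 and 1.39 on day 6. In DKI MDCs the ratio was 0.445 on day 3 and 0.593 on day 6. On day 6 the log2 ratio was 0.39 ± 0.57 in WT and −0.75 ± 0.19 in DKI MDCs (SD, n = 3), with every DKI library below every WT library and an exact two-sided permutation p of 0.1, the smallest that 3 against 3 libraries allow. The day 6 ratio of *H2-Oa* to *H2-DMa* was 0.0819 in WT MDCs and 0.0372 in DKI MDCs (exact permutation p = 0.2). After Benjamini-Hochberg adjustment over the 21 ratios and days each adjusted p was 1, and the test could not have called any of them.

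**Figure D3:**
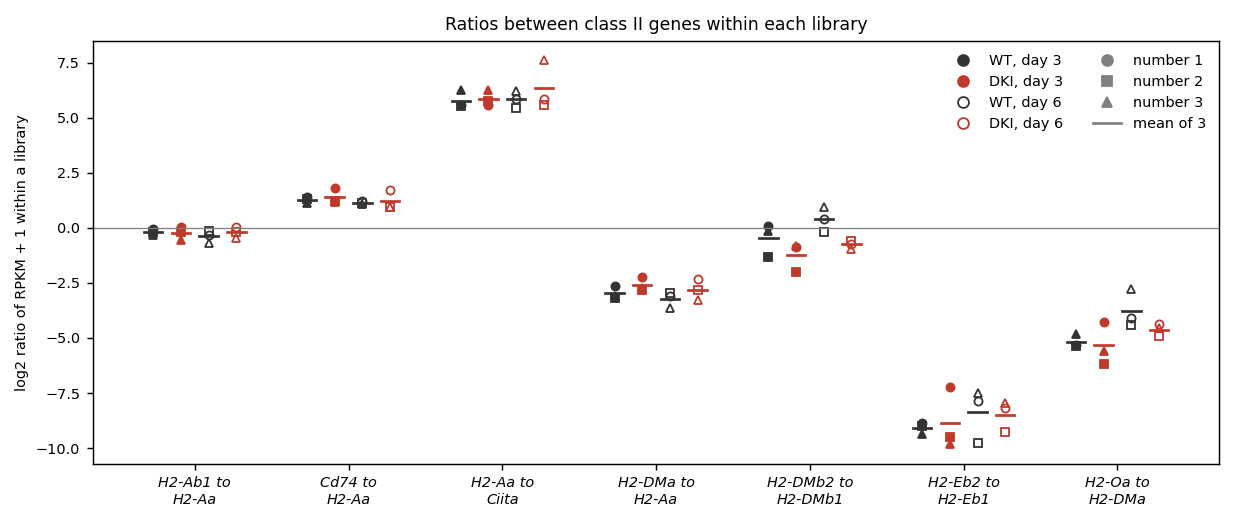
Log2 ratio of RPKM + 1 between 2 class II genes within each library, for WT (black) and DKI (red) MDCs on day 3 (filled) and day 6 (open). Symbol shape is the library's number and the line is the mean of 3; the ratio of H2-DMb2 to H2-DMb1 on day 6 is between −0.19 and 0.96 in WT and between −0.96 and −0.58 in DKI MDCs, while the ratios among the classical chains and Cd74 overlap.

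Genes that lie among the class II genes but serve class I did not pass the test, and of the 10 members 1 passed it on each day. The class II gene *H2-Ob*, the DO β chain, was at 46.5, 12.9 and 42.8 RPKM in WT and 1.85, 3.02 and 6.81 RPKM in DKI MDCs on day 3 and was called lower (log2 fold change −2.78, SE 0.57, adjusted p = 0.0397 in limma), a call that was lost in 4 of 6 fits with 1 library left out. On day 6 its log2 fold change was −2.45 (adjusted p = 0.0907), with 31.8 RPKM in DKI library 2 against 2.70 and 6.59 RPKM. Between *H2-DMb1* and *H2-Ob* lie *Psmb8* and *Psmb9*, subunits of the immunoproteasome, and *Tap1* and *Tap2*, which carry peptides for class I. None of these 4, nor *Brd2*, was called on either day, and their log2 fold changes ran from −0.69 to 0.17, with medians of −0.23 on day 3 and −0.55 on day 6 against −0.11 and −0.17 over all genes. *H2-Ea* was listed at no more than 0.108 RPKM in any library.

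**Figure D4:**
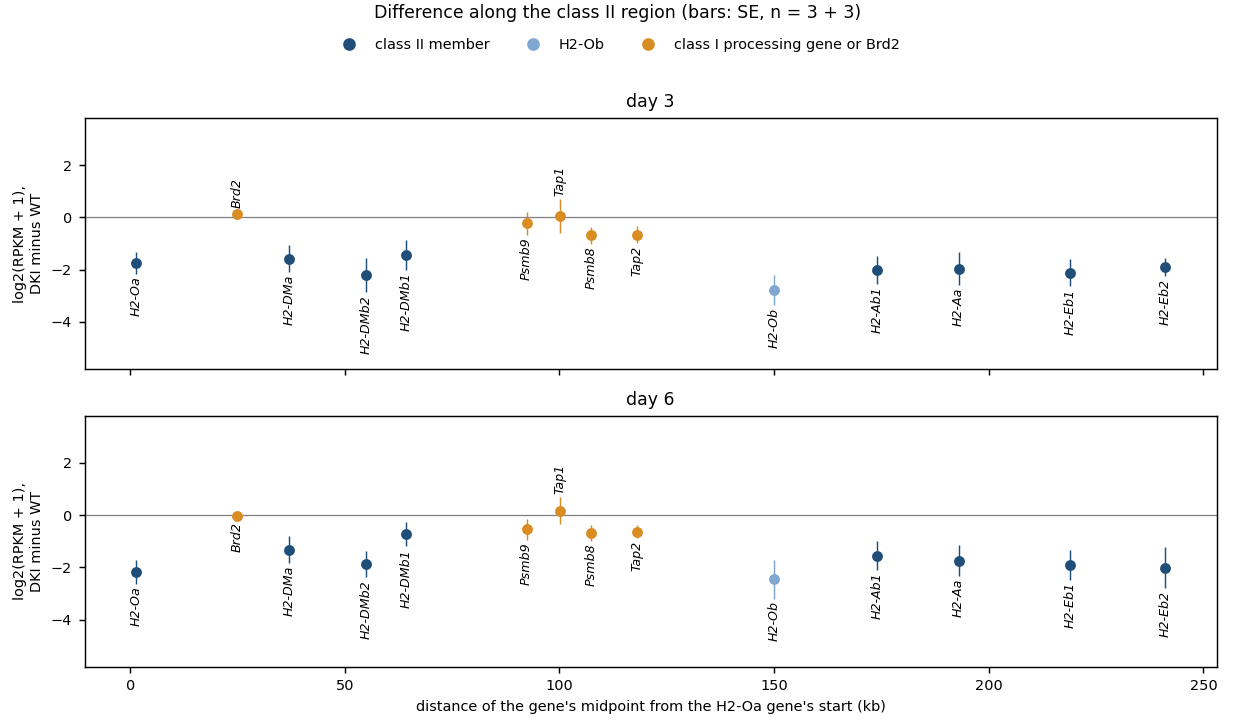
Log2 fold change DKI minus WT on the log2(RPKM + 1) scale, with its SE (3 libraries per group), against the distance of each gene's midpoint from the start of H2-Oa in kb, for day 3 (top) and day 6 (bottom). Class II genes (dark blue, with H2-Ob in light blue) lie between −2.78 and −0.72, and the class I processing genes and Brd2 between them (orange) between −0.69 and 0.17.

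Of the genes for lysosomal proteases, 4 were higher in DKI MDCs and *Ctss* did not pass the test. Of 13 other genes of class II processing and presentation, 12 were fitted. In DKI MDCs of day 3, 4 of these were called higher and 1, *H2-Ob*, lower, with a median log2 fold change of 0.33, where 3.21% of all genes fitted were called higher and 4.21% lower. *Ctsl*, encoding cathepsin L, was at 91.0, 73.1 and 276 RPKM in WT and 1419, 1656 and 1167 RPKM in DKI MDCs (log2 fold change 3.50, SE 0.51, adjusted p = 0.0165 in limma). *Ctsd* and *Ctsb*, encoding cathepsins D and B, had log2 fold changes of 2.43 and 2.39, and *Lgmn*, encoding the asparaginyl endopeptidase legumain, of 2.80. All 4 were also called on day 6, with log2 fold changes from 2.27 (*Lgmn*) to 3.66 (*Ctsl*). With the block, *Ctsl* and *Ctsd* were called on day 3, and *Ctsl* and *Ctsb* on day 6, where 263 and 285 of all genes were called higher. The block also added *Cd82*, encoding a tetraspanin, as lower on day 6 (adjusted p = 0.0419, against 0.0544 without it), at 92.97, 84.4 and 73.3 RPKM in WT MDCs and 53.8, 40.6 and 28.9 RPKM in DKI MDCs. Leaving out 1 library ended the *Ctsl* call of day 3 in 2 of 6 fits and that of day 6 in 0 of 6, and ended each other protease's call in 3 to 5 of 6. *Ctss*, encoding cathepsin S, the main invariant chain protease of dendritic cells, was at 1747, 2099.6 and 2401 RPKM in WT and 5350.2, 4126 and 3744 RPKM in DKI MDCs, and was not called (log2 fold change 1.08, adjusted p = 0.0973). With all 18 libraries in 1 fit it was called on both days (adjusted p = 0.00652 on day 3 and 0.00251 on day 6). *Ifi30* (a lysosomal thiol reductase), *Sppl2a* (which cleaves the last invariant chain fragment) and *Marchf1* and *Marchf8* (ubiquitin ligases of class II) had log2 fold changes between −0.28 and 0.11 on both days. The summed macrophage markers given above were also higher in these DKI libraries.

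None of the factors that sit on class II promoters, *Rfx5*, *Rfxap*, *Rfxank*, *Nfya*, *Nfyb*, *Nfyc*, *Creb1* and *Atf1*, was called between genotypes on day 3 or day 6, although 2 of the 8 had an unadjusted p under 0.05 on day 6, and their log2 fold changes lay between −0.56 and 0.16 (medians −0.04 and −0.16). In WT cells *Nfyb*, *Nfyc*, *Creb1* and *Atf1* fell from day 0 to day 3, where 2270 of all 9938 genes were called lower. With the block *Creb1* was not called (adjusted p = 0.0629), but same-numbered WT libraries of days 0 and 3 did not vary together (mean correlation −0.08). With 1 library left out *Creb1* stayed called in 4 of 6 fits and *Atf1* in 3 of 6. Of 9 regulators known to act on *Ciita*, 2 were called lower in DKI MDCs on day 3 and 3 on day 6, where 4.21% and 4.82% of all genes were called lower, with medians of −0.19 and −0.68. On day 3 *Irf4*, a transcription factor of dendritic and B cells, was at 82.8, 142 and 120.4 RPKM in WT MDCs and 4.26, 24.6 and 23.7 RPKM in DKI MDCs (log2 fold change −2.92, SE 0.63, adjusted p = 0.0446 in limma), and its log2 fold change on day 6 was −2.66. *Stat5a* itself was lower on both days (−1.67 and −1.68), and *Socs1*, a feedback inhibitor of cytokine signalling, on day 6 (−1.64). The interferon-responsive factor *Irf1* was not called. It was highest in DKI library 1 of day 3, at 78.5 RPKM, the library of that day with the least *Ciita*. Leaving out 1 library ended the *Irf4* call in 5 of 6 fits on day 3 and 3 of 6 on day 6, with adjusted p-values up to 0.142. It ended the *Stat5a* call in 3 of 6 fits on day 3 and 4 of 6 on day 6, and the *Socs1* call of day 6 in 3 of 6. With the block 2 regulators were called on day 6, *Stat5a* no longer being among them (adjusted p = 0.0516), where 4.41% of all genes were called lower. *Spi1*, encoding PU.1, had log2 fold changes of −0.18 and −0.04.

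Class I genes were listed for comparison, and the difference between the class I and class II sets was not tested. None of *H2-K1*, *H2-D1*, *B2m*, *Tap1*, *Tap2*, *Tapbp* and *Nlrc5* was called between genotypes, and the median log2 fold change was 0.67 on day 3 and 0.35 on day 6. On day 3 each of these genes was highest among DKI MDCs in library 1. In DKI libraries 2 and 3, *Tap1* (49.1 and 32.9 RPKM) and *Tap2* (30.2 and 34.8) lay below WT (58.4 to 78.9 and 57.5 to 76.6). There *H2-D1* (526 and 518) lay above WT (336 to 511), and the other genes reached into the WT range. *Nlrc5*, the class I counterpart of *Ciita*, was at 5.43, 6.94 and 8.44 RPKM in WT and 22.7, 8.31 and 6.32 RPKM in DKI MDCs on day 3. Its highest value and that of *H2-K1* on day 3 (2253 RPKM, against 409 and 479 in the other DKI libraries and 391 to 470 in WT) were in DKI library 1, the library with the least *Ciita* and *H2-Aa*.

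**Figure D5:**
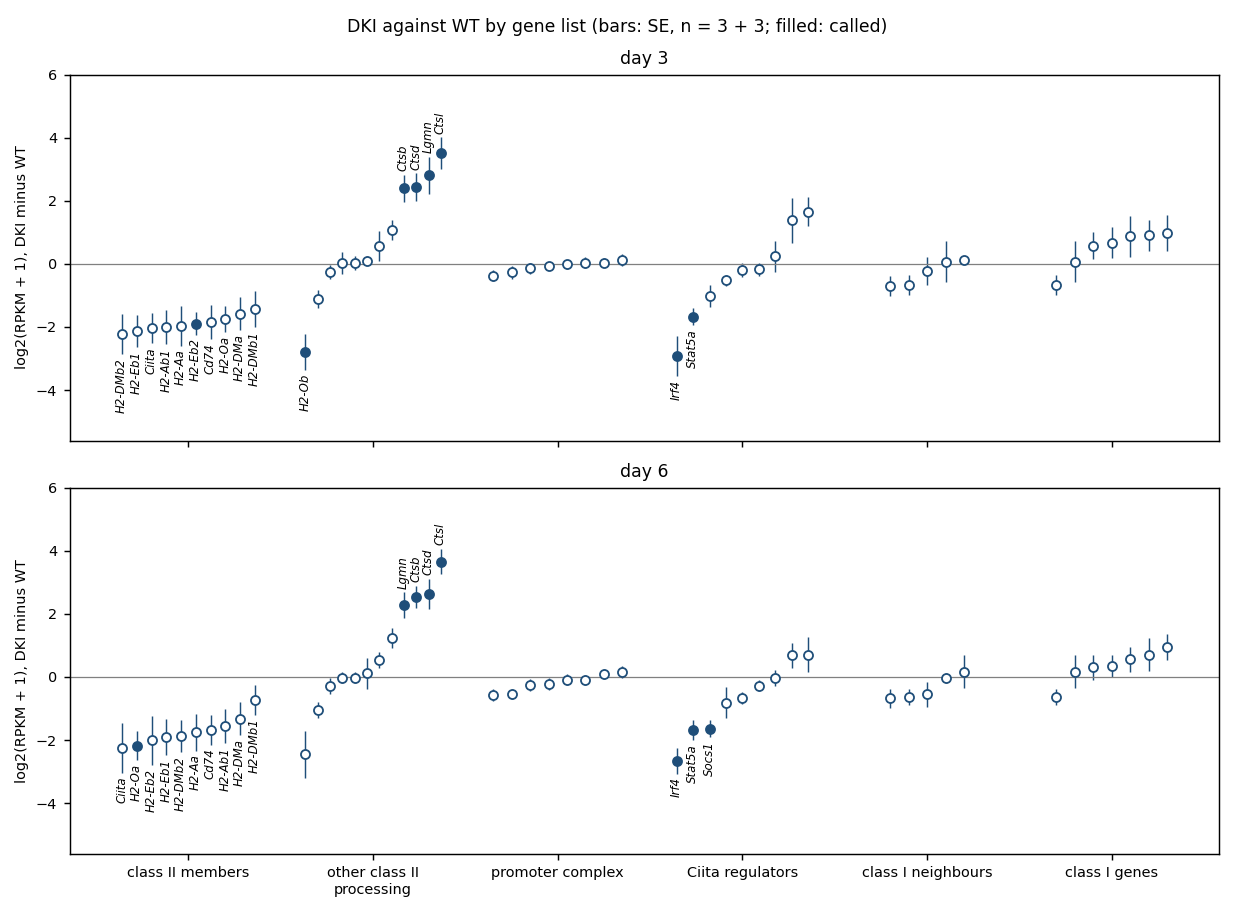
Log2 fold change DKI minus WT on the log2(RPKM + 1) scale with its SE (3 libraries per group) for 6 gene lists on day 3 (top) and day 6 (bottom). Filled points were called; all 10 class II members lie below 0, 4 proteases lie above 2, and the promoter complex lies between −0.56 and 0.16.

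Whether the day 0 to day 3 rise itself differed between genotypes was asked with an interaction term. The term was negative for all 10 genes, from −2.18 (*H2-Eb1*) to −1.47 (*H2-DMb1*), and 9 of them had an unadjusted p under 0.05. Of all 10212 genes fitted, 6200 had a negative term and 1606 an unadjusted p under 0.05. *H2-Eb2* was called (−1.92, SE 0.41, adjusted p = 0.033 in limma, 0.246 with all 18 libraries), where 2.91% of 10212 genes were called in either direction. It passed the limit on mean RPKM only through WT MDCs of day 3. Leaving out WT library 1, DKI library 2 or DKI library 3 of day 3, or any library of day 0, ended that call. From day 0 to day 6 the term lay between −2.31 (*Ciita*) and −0.76 (*H2-DMb1*), 0 of the 10 were called against 2.8% of all genes, and 8 had an unadjusted p under 0.05, as had 1791 of all 10353 genes. Without DKI library 2 of day 6, 6 were called, and of all 10343 genes fitted 450 had a negative and 214 a positive called term. From day 3 to day 6 the terms lay between −0.44 and 0.71, and 0% of all genes were called. The terms from day 0 to day 3 and from day 0 to day 6 share the day 0 libraries.

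Genes were also ranked by how closely their log2(RPKM + 1) values, centred on each gene's own mean, followed those of *Ciita* over the 18 libraries. The nearest of 10835 genes were *Cdh1* (mean absolute difference 0.34), *H2-DMb2* (0.413), *Dcstamp* (0.471), *Aldoc* (0.546) and *Scimp* (0.55). *Cd74* ranked 7, *H2-Aa* 18, *H2-Ab1* 31 and *H2-Eb1* 68, followed by *H2-Oa* (136), *H2-DMb1* (140), *H2-DMa* (202) and *H2-Eb2* (340). *Cdh1*, encoding E-cadherin, was at 222, 149 and 120 RPKM in WT and 14.3, 66.2 and 46.2 RPKM in DKI MDCs on day 3. Like *Ciita*, it was highest among DKI MDCs of day 6 in library 2, at 133 RPKM, against 12.5 and 24.0 RPKM. *Cdh1* was picked for its likeness to *Ciita* over these same libraries, so this is no separate observation. This measure weighs the size of the rise as well as its shape, so that genes which rose further or less far than *Ciita* on this scale rank lower.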

How the data were processed

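RNA was extracted from WT and DKI mouse monocytes on days 0, 3 and 6 (3 libraries per group, 18 in all). The authors aligned single-end reads to mm10 with Subread, counted them on RefSeq genes with featureCounts and deposited RPKM values; versions, strand and the handling of multiply matching reads are not given in the sources used here. RPKM are not counts, so log2(RPKM + 1) was fitted with limma 3.58.1 in R 4.3.3 (mean-variance trend), on the groups compared and for genes with a mean above 2 RPKM in 1 of them. A gene was called at a Benjamini-Hochberg adjusted p under 0.05 over all fitted genes and a fold change above 1.5. The fits were tested on simulated data with independent libraries and the WT spread in both groups. Pairs, and a spread that differs between genotypes, were not simulated. Ratios were tested by exact permutation. The genes named were the 10 members, the genes of the lists and the 5 nearest to *Ciita*; members and lists were chosen with earlier results of these data known. The numbers in the labels paired WT with DKI libraries: same-numbered deviations correlated in every pair (lowest 0.69, 0.16 and 0.34 on days 0, 3 and 6). Between days 0 and 3 they did not (mean correlation −0.08 in WT and 0.05 in DKI cells), so the block holds no pairing across those days. Nothing says how many animals a library holds, so p-values measure the spread between these libraries. Of the identifiers, 20082 were found in RefSeq (GRCm38.p6) and 216 were not; promoter sequences are RefSeq's. Alternatives were the block, pseudocount 0.1, no filter, median centring, quantile normalization, all 18 libraries in 1 fit and leaving out each library; numbers 2 and 3 alone were added after seeing the data.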

Additional observations from a re-analysis of the deposited data

Results flagged for a closer look

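Interaction terms that passed the test mark genes whose change from day 0 differed between WT and DKI cells. Among the 10 class II genes this held for *H2-Eb2* from day 0 to day 3 (−1.92 on the log2(RPKM + 1) scale, DKI minus WT), which passed the limit on mean RPKM only through WT MDCs. Among the other genes of class II processing, the terms were 3.53 for *Ctsl*, 2.50 for *Ctsd* and 2.46 for *Ctsb* from day 0 to day 3, and 3.68, 2.72 and 2.61 from day 0 to day 6. Of the regulators known to act on *Ciita*, *Stat5a* had a term of −1.60 from day 0 to day 3, and *Irf4* and *Socs1* had terms of −2.94 and −1.56 from day 0 to day 6. With 1 library left out in turn, the calls from day 0 to day 3 remained in 3 of 12 fits for *H2-Eb2*, 5 for *Ctsl*, 7 for *Ctsd*, 5 for *Ctsb* and 4 for *Stat5a*. From day 0 to day 6 they remained in 12 of 12 for *Ctsl* and *Ctsb*, 3 for *Ctsd*, 7 for *Irf4* and 4 for *Socs1*. All groups have 3 libraries, too few for the test of single libraries that stand apart.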

How the results depend on the processing

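All 10 genes were lower in DKI MDCs on days 3 and 6 in every fit run. What moved was how many passed the adjustment over all genes, 1 on each day. On day 3 the count was 2 with the replicate block, with median centring, with quantile normalization and with numbers 2 and 3 alone (an alternative chosen after seeing the data), 0 without the filter on low values and 8 with all 18 libraries in 1 fit. On day 6 it was 0 with the replicate block, without the filter, with median centring, with quantile normalization and with numbers 2 and 3 alone, and 6 with all 18 libraries. Leaving out single libraries gave 0 to 3 genes on day 3 and 0 to 8 on day 6. For the interaction from day 0 to day 3 the count was 1 with the replicate block and 0 with a pseudocount of 0.1, without the filter, with median or quantile scaling and with all 18 libraries. Leaving out single libraries gave 0 to 2 there (2 without WT library 2 or DKI library 1 of day 3, beside 139 and 177 of all genes with a negative called term, against 174), and 0 to 6 for the interaction from day 0 to day 6 (2 without WT library 2 and 6 without DKI library 2 of day 6, beside 363 and 450, against 197). Without the filter 20298 genes entered the adjustment in place of 9740 and 9842; the cause of the other changes was not tested.

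Over all genes, the calls of day 3 (410 lower, 313 higher) became 81 and 58 without the filter, 795 and 564 with all 18 libraries and 206 and 163 with numbers 2 and 3 alone. Those of day 6 (474 lower, 268 higher) became 28 and 10, 1054 and 519, and 12 and 26. Median centring brought the median of all genes to −0.04 on day 3 (from −0.11) and −0.02 on day 6 (from −0.17), and the medians of the 10 genes were then −1.85 and −1.66. Those of the DKI rise to day 3 (1297 higher, 2097 lower) became 858 and 1332 without the filter and 1743 and 1622 with median centring, and with all 18 libraries 6 genes were called on day 0 and 16 from day 3 to day 6 in WT, against 0. The counts of called members for day 0, for the rises to day 3 and for days 3 to 6 stayed within 1.5 times under the block, the pseudocount, the filter, both scalings and the fit of all 18 libraries. The ratio of *H2-Eb2* to *H2-Eb1* on day 3 went from 0.23 (DKI minus WT, log2) to −0.84 with a pseudocount of 0.1, and *H2-Eb2* at day 0 was below the level of 3 reads on 1 kb.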
